A study of Mus musculus with 6 samples.

Results

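The mouse Zfp genes are zinc finger genes that carry the gene name Zfp followed by a number. Those described here are the protein-coding Zfp genes, Zfp36 left out, whose mean over 6 libraries was 50 normalized counts or more in germinal center (GC) B cells. This rule took 156 of the 309 protein-coding Zfp genes in a table of 19680 genes. The genes were thus chosen by their mean level, which pools both genotypes, and the level is given below as a description only. Both groups were C57BL/6 mice of 6 to 8 weeks that carried floxed Senp1, the gene of a protease that matures SUMO and removes it from other proteins. The 3 WT libraries came from Senp1flox/flox mice and the 3 cKO libraries from Senp1flox/flox mice that also carried Cγ1-Cre, a Cre recombinase expressed from the IgG1 heavy chain constant locus, which antigen-stimulated B cells switch on. All mice received 100 µg of the model antigen NP-CGG intraperitoneally, and splenic GC B cells (B220+ CD38- FAS+) were sorted on day 14 for RNA sequencing. Mice with Cre but no floxed Senp1 and mice without immunization were not analysed here. The labels call the mice paired but do not say whether each library is its own mouse, and the p-values below rest on the spread among the 6 libraries alone, which may be technical.

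Most Zfp proteins are built from repeats of the C2H2 zinc finger, a small fold in which a pair of cysteines and a pair of histidines hold a zinc ion, and arrays of these fingers read DNA or bind RNA. Many also carry a KRAB domain, which recruits the corepressor TRIM28 and through it the histone methyltransferase SETDB1, and such proteins silence retroelements in many tissues. TRIM28 and many zinc finger proteins are known SUMO acceptors, and SUMO on TRIM28 helps it to bind SETDB1.

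Senp1 itself had 915, 868 and 891 normalized counts (reads divided by a size factor per library) in the 3 WT libraries, by replicate number, against 373, 425 and 398 in the 3 cKO libraries, so every cKO library lay below every WT library. Depth per library was 5160902 to 10339054 reads for WT, while for cKO it was 3019152 to 9657005, with replicate 1 the deepest of each group. The Zfp genes took 0.601% to 0.664% of the reads in 5 libraries and 0.523% in cKO replicate 3. Mitochondrial genes took 2.71%, 7.92% and 9.83% of the WT reads, by replicate number, against 3.66%, 12.3% and 19.1% of the cKO reads. The 10 GC B cell markers checked were read in every library and summed to 38408 to 40683 normalized counts in WT and to 32264 to 38427 in cKO. Summed T cell markers were 604 to 697 in WT and 513 to 1583 in cKO, with Cd3d, Cd3g and Cd8a at 0 in at least 1 library. Summed macrophage markers were 108 to 299 in WT and 292 to 450 in cKO, with C1qb, C1qc and Cd14 at 0 in at least 1 library. Summed naive B cell markers were 2172 to 4515 in WT and 3761 to 7862 in cKO. Summed plasma cell markers were 8328 to 12944 in WT and 7121 to 16063 in cKO. Erythroid sums were 38.4 to 56.4 in WT and 32.5 to 133 in cKO, and neutrophil sums 10.3 to 111 and 18.4 to 116, each with markers at 0, among them Alas2 and Ly6g. The highest T cell, macrophage, plasma cell and naive B cell sums and the lowest GC B cell sum were all in cKO replicate 2, and the highest erythroid sum was in cKO replicate 3. The part of these cells in any Zfp value was not tested unless a value is given below.

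The Zfp genes differ widely in build. Translated from the GENCODE M21 annotation, they held a median of 9 C2H2 fingers, counted as C-X(2 to 4)-C-X(12)-H-X(3 to 5)-H. Zfp142 had the most with 36, 8 genes had 1 finger, and 123 had 5 or more. Zfp330, Zfp703 and Zfp839 had no match to this spacing. A KRAB core motif was found in 55 of the 156 (35.3%), against 92 of the 153 Zfp genes under the mean of 50 (60.1%). The motif is strict and misses diverged KRAB boxes, and the comparison of shares is a description, since level chose both sets. A SCAN domain motif was found in 8. Zfp genes sit in clusters: 45 of the 55 genes with the KRAB motif had at least 2 other protein-coding Zfp genes of GENCODE M21 within 1 Mb, on GRCm38, against 41 of the other 101. Chromosome 7 held 37 of the 156 and chromosome 17 held 19.

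Levels were compared per kilobase of annotated exon, because longer transcripts collect more reads. Zfp106, an RNA-binding protein needed in motor neurons and muscle, was the highest at a mean of 242 normalized counts per kilobase. Next came Zfp207, which loads the checkpoint protein BUB3 at kinetochores, at 231, and Zfp362 at 211. Zfp706, a small protein with 1 finger that promotes exit of embryonic stem cells from self-renewal, followed at 206 and Zfp740 at 164. None of these 5 had the KRAB motif. The median was 21.8 per kilobase for the genes with the motif and 30.5 for the others, and the lowest was Zfp738 at 4.09. At the rule's edge, Zfp770, Zfp825 and Zfp865 entered with means of 50.2, 50.3 and 51.0 normalized counts. Zfp59, Zfp810 and Zfp81 stayed outside at 49.5, 49.2 and 49.1. For Zfp106, Zfp738, Zfp825 and Zfp865, 25.2%, 20.3%, 28.7% and 35.6% of the transcript's 50-base words also occur in transcripts of another gene. All 156 passed the filter of the test on low values, and none was at 0 in any library.

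The first comparison was cKO against WT. The Zfp genes did not move as a group: 78 had a higher fitted value in cKO and 78 a lower one, with a median log2 difference of -0.0041 against -0.0019 over all 14678 genes tested. The middle 50% of the Zfp genes lay between -0.15 and 0.13 on the log2 scale, and the extremes were -0.51 and 0.78. None of the 156 was called by limma at an adjusted p under 0.05, where the smallest Zfp value was 0.915, and 0 of the 14678 genes were called (0%). Senp1, the deleted gene, was not called either, at a log2 difference of -1.16 with a limma adjusted p of 0.111. A gene left uncalled by this test is therefore not shown to be unchanged. At an unadjusted p under 0.05, limma had 5 Zfp genes higher in cKO (3.21%, against 2.98% of all genes) and 1 lower (0.641%, against 2.17%). Without cKO replicate 1 these counts were 9 and 5, when the shares of all genes were 4.95% and 4.35%, and without any other single library they were 2 higher and 0 to 5 lower (5 without WT replicate 1, 2 without cKO replicate 2, 0 without WT replicate 2 or cKO replicate 3). Without those other libraries the shares of all genes were 1.30% to 2.55% higher and 1.04% to 2.65% lower. DESeq2 on recovered reads likewise called 0 of the 156 and 20 genes of the whole table, and edgeR called 0 of either. The authors' deposited table has 23 genes with an adjusted p under 0.05, and none of the 156 is among them.

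Libraries of the groups did not overlap for 9 Zfp genes that were higher in cKO, where the share among all genes was 6.28%, and for 8 that were lower, where it was 5.28%. These counts are 5.77% and 5.13% of the 156, close to the background. The precision was enough to bound most genes: the 95% interval lay within a 2-fold change in either direction for 136 of the 156, and within 1.5-fold for 53. The median standard error was 0.22 on the log2 scale. In bulk RNA of sorted cells, a lower value from fewer expressing cells and one from less RNA per cell cannot be told apart.

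**Figure D1:**
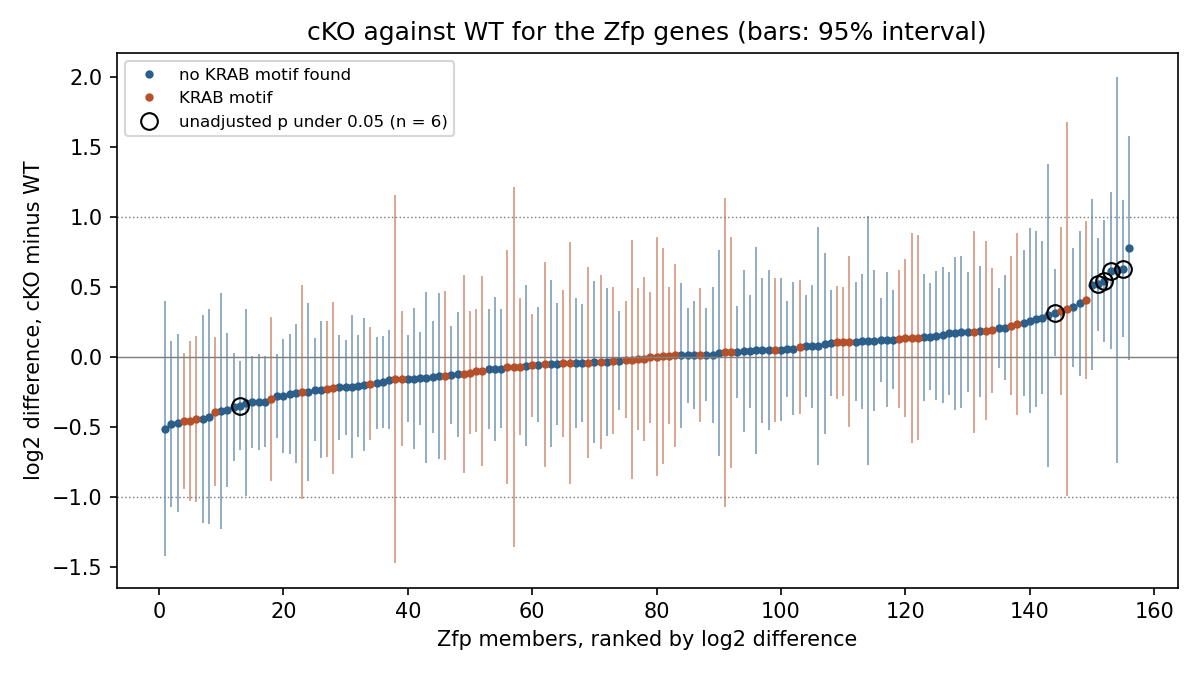
Log2 difference between cKO and WT (vertical axis, log2(normalized count + 1) scale) for the 156 Zfp genes ranked from lowest to highest, with 95% limma intervals as bars, colours for genes with and without the KRAB motif and rings for an unadjusted p under 0.05. The points are centred near 0, with 78 on each side, and the extremes are -0.51 and 0.78.

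Zfp777 had the smallest unadjusted p. It has 9 fingers and lies on chromosome 6 (GRCm38, 48024188 to 48048911, minus strand), 13484 bases from Zfp746. It was read at 182, 166 and 184 normalized counts in the WT libraries and at 242, 262 and 259 in the cKO libraries. All cKO libraries lay above all WT libraries, and the spread within each group was small. The log2 difference was 0.52 ± 0.14 (SE), a 1.43-fold difference with a 95% interval of 0.19 to 0.85 (limma, unadjusted p = 0.00619, adjusted p = 0.915). It was 0.41 within replicate 1 and 0.57 within replicates 2 and 3. The authors' deposited table gives it an adjusted p of 0.712. Its RefSeq promoter window (GRCm38.p6, chr6:48047745-48048044, minus strand, 250 bases before the start and 50 after) is printed as that of the gene with the smallest p, with each GC box (GGGCGG) in capitals. It is 82.3% G and C and holds 51 CG pairs, against medians of 58.0% and 17 over 156 windows of 125 Zfp genes.
Zfp777: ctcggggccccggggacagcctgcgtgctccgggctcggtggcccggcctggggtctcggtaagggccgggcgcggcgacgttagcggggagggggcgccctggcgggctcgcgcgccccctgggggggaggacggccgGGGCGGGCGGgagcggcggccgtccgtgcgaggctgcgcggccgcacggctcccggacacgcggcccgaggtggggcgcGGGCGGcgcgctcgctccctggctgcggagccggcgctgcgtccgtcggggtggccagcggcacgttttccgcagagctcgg

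The other 4 Zfp genes with an unadjusted p under 0.05 and a higher cKO value were Zfp523, Zfp276, Zfp653 and Zfp335. Zfp523 is the mouse counterpart of ZNF76 and a close relative of the promoter-binding factor Zfp143. It was read at 70.8, 75.6 and 64.1 in WT and at 91.1, 129 and 110 in cKO, a log2 difference of 0.63 ± 0.21 (limma, unadjusted p = 0.0172). Zfp276 was read at 121, 125 and 146 in WT and at 156, 201 and 221 in cKO (0.55 ± 0.19 on the log2 scale). Zfp653 was read at 65.7, 79.8 and 72.6 in WT and at 85.1, 112 and 147 in cKO (0.62 ± 0.25). In each of these 3 genes every cKO library lay above every WT library, with cKO replicate 1 nearest to WT. Zfp335, a subunit of a histone H3 lysine methyltransferase complex that is needed for T cell maturation, was read at 381, 406 and 419 in WT and at 444, 549 and 519 in cKO, a log2 difference of 0.32 ± 0.14. Within replicate 1 these 4 log2 differences were 0.36, 0.36, 0.37 and 0.22, in the order named, and within replicates 2 and 3 they were 0.77, 0.64, 0.75 and 0.37. For Zfp276, Zfp653 and Zfp335, 20.8%, 20.5% and 20.3% of the 50-base words of their transcripts also occur in transcripts of another gene, which includes genes that overlap them. No source used here gives the strand setting of the counting, so reads of overlapping genes may not be told apart.

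Beyond that threshold, the next smallest p on the higher side belonged to Zfp692, Zfp865 and Zfp513, and none passed the test. Zfp692 had the largest log2 difference of all 156, 0.78 ± 0.35, from 33.9, 60.7 and 59.8 in WT and 55.9, 101 and 114 in cKO. Its groups overlapped, because cKO replicate 1 lay below WT replicates 2 and 3. Zfp692 lies 487 bases from Zfp672 on chromosome 11. Zfp865, which has 20 fingers and overlaps Zfp784, was read at 48.5, 41.5 and 35 in WT and 56.4, 51.2 and 73.5 in cKO. Of the words of Zfp865, 35.6% are shared with another gene. Zfp513, linked to retinal degeneration, had 184, 237 and 203 in WT and 214, 288 and 302 in cKO. None of the 8 named on the higher side matched the strict KRAB motif, which does not show that they lack a KRAB box. Across the 6 libraries, the Zfp genes whose log2 values were most like those of Zfp777 were Zfp276 (Pearson r = 0.90), Zfp523 (0.89) and Zfp335 (0.89). These coefficients are descriptions over 6 libraries that share the difference by which the genes were ranked.

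On the lower side, Zfp706 was the only gene with an unadjusted p under 0.05. It was read at 1218, 1155 and 1064 in WT and at 1026, 786 and 903 in cKO, so the groups did not overlap, with cKO replicate 1 close to WT replicate 3. The log2 difference was -0.35 ± 0.14 with a 95% interval of -0.66 to -0.03 (limma, unadjusted p = 0.0364, adjusted p = 0.915). It was -0.25 within replicate 1 and -0.40 within replicates 2 and 3. Zfp664 was read at 381, 391 and 419 in WT and at 360, 290 and 308 in cKO. Zfp608, which represses Rag gene expression in thymocytes, was read at 544, 610 and 713 in WT and at 516, 514 and 458 in cKO. Zfp180 was read at 269, 317 and 271 in WT and at 247, 232 and 208 in cKO. The groups did not overlap in any of these 3, and each log2 difference was -0.32, with 95% intervals that just reached above 0. Zfp715 had the KRAB motif and 114, 112 and 125 in WT against 105, 83.5 and 69.4 in cKO. Zfp106, the highest Zfp gene, was read at 2902, 2800 and 2587 in WT and at 2518, 2287 and 2053 in cKO (log2 difference -0.28 ± 0.13). Zfp644 and Zfp346 complete the 8 and are described with their roles below. Within replicate 1 the log2 differences of Zfp664, Zfp608 and Zfp715 were -0.08, -0.08 and -0.11, and within replicates 2 and 3 they were -0.43, -0.44 and -0.63.

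**Figure D2:**
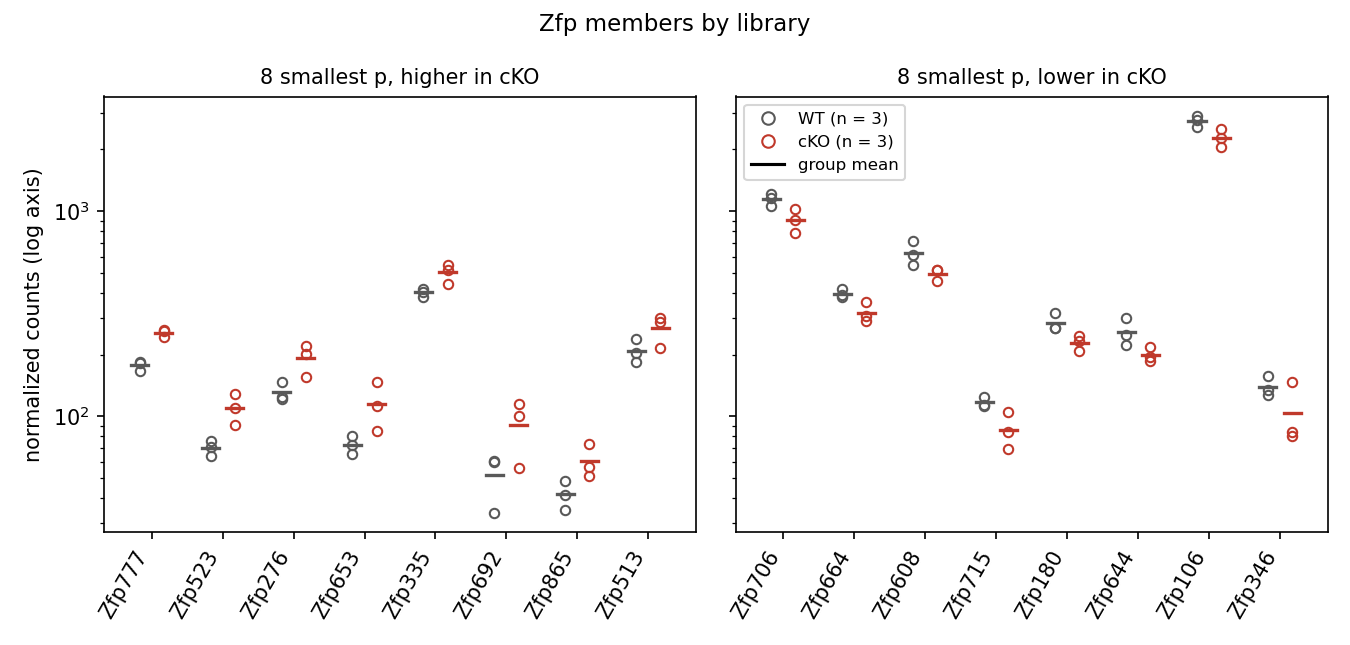
Normalized counts per library for the Zfp genes with the smallest unadjusted p in each direction, WT (grey) and cKO (red) libraries as points on a log axis and the group means as short lines. The cKO points of Zfp777 (242 to 262) all lie above its WT points (166 to 184), and those of Zfp706 (786 to 1026) all lie below its WT points (1064 to 1218).

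By role, 10 of the 156 were listed as partners of chromatin regulators or general promoter factors. None passed the test, 4 had a higher and 6 a lower cKO value, and their median log2 difference was -0.07. Zfp644, which recruits the histone methyltransferases G9a and GLP, was read at 222, 248 and 302 in WT and at 187, 194 and 219 in cKO, without overlap (log2 difference -0.36 ± 0.17, limma adjusted p = 0.915). Zfp143, which binds promoters at loop anchors, was read at 278, 271 and 249 in WT and at 234, 243 and 241 in cKO, also without overlap but with a smaller log2 difference of -0.15 ± 0.14. Zfp592 and Zfp687, partners in a complex with ZMYND8, had log2 differences of 0.06 and -0.23. Zfp148 and Zfp281, related factors that bind GC-rich DNA, had -0.19 and 0.03. Zfp384, fused to other genes in leukemia, had 0.08. Zfp217, a partner of the CoREST repressor complex, had 0.04. Zfp410, an activator of Chd4, had -0.08, and Zfp609, a partner of the cohesin loader NIPBL, had -0.06. The 95% interval lay within 2-fold for all 10.

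Zfp proteins listed as acting on RNA or ribosomes were 10 as well, of which 7 had a higher and 3 a lower cKO value. None passed the test (median log2 difference 0.02). Zfp346, which binds double-stranded RNA, had the largest difference at -0.48 ± 0.26. It was read at 157, 134 and 126 in WT and at 146, 79.7 and 83.7 in cKO, so cKO replicate 1 lay among the WT values. Zfp207 was read at 1302, 1660 and 1887 in WT and at 1269, 1414 and 1704 in cKO, with replicate 1 the lowest of each group. The ribosome factors showed small differences. Zfp598, the ubiquitin ligase that senses collided ribosomes, had 279, 246 and 231 in WT and 277, 307 and 229 in cKO. Zfp622 and Zfp593, which act in maturation of the large ribosomal subunit, had log2 differences of 0.21 and 0.14. For Zfp593, 64.5% of the transcript's words are shared with another gene, and its value is uncertain for that reason. Zfp326, Zfp638, Zfp330 and Zfp830 lay between 0.02 and 0.05 on the log2 scale. Of the words of Zfp330, 31.3% are shared with another gene.

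The Zfp genes listed for the SUMO and ubiquitin systems were 2, while the ubiquitin ligase Zfp598 was listed with the ribosome factors. Zfp451, a ligase that builds SUMO2 and SUMO3 chains, was read at 202, 289 and 357 in WT and at 222, 279 and 245 in cKO. Its groups overlapped, with a log2 difference of -0.15 ± 0.22 and a 95% interval of -0.65 to 0.35. Zfp91, a ubiquitin ligase of the noncanonical NF-kB pathway, was read at 847, 1123 and 1113 in WT and at 810, 924 and 907 in cKO, a log2 difference of -0.21 ± 0.15. Neither passed the test.

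Of the Zfp genes listed for roles in lymphocytes, Zfp318 varied most between libraries of 1 group. Zfp318 lets mature naive B cells make IgD by RNA processing of the heavy chain transcript. It was read at 68.2, 126 and 210 in WT and at 79.2, 450 and 186 in cKO. The groups overlapped widely, and cKO replicate 2 alone reached 450 (log2 difference 0.62 ± 0.60, limma unadjusted p = 0.331). Without cKO replicate 2 the log2 difference was -0.0046, and without cKO replicate 1 it was 1.24. The summed naive B cell markers were also highest in cKO replicate 2, at 7862, and their part in the Zfp318 value was not tested. Zfp831 showed the same high library, with 60.2, 78.8 and 107 in WT and 51.5, 214 and 85.8 in cKO. Zfp683, a regulator of resident T cells, was at or under 1.06 normalized counts in every library.

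Among the listed zinc finger repressors of retroelements and guardians of imprints, 6 were measured, with 2 higher and 4 lower in cKO and no test passed. Zfp445, which maintains imprints, was read at 236, 199 and 226 in WT and at 226, 239 and 165 in cKO. Zfp568, which represses a placental Igf2 promoter, had 184, 131 and 171 in WT and 152, 156 and 167 in cKO. Zfp809, which silences retroviruses through their primer binding site, had 64.2, 63.9 and 58.1 in WT and 85.1, 53.1 and 49.0 in cKO. The groups overlapped in all 3. Zfp932, another repressor of endogenous retroviruses, split the libraries by replicate and not by genotype, with 28.8, 101 and 104 in WT and 29.3, 89.2 and 83.7 in cKO. Of its words 45.2% are shared with another gene. Zfp110 and Zfp369, mouse relatives of ZNF274, had log2 differences of 0.15 and 0.12. Zfp57, the best known imprint guardian, was read in cKO replicate 1 only, at 1.63 normalized counts.

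The 55 genes with the KRAB motif had a median log2 difference of -0.02, with 25 higher and 30 lower in cKO and none at an unadjusted p under 0.05. Their corepressors were examined beside them. Of 26 tested genes of the KRAB corepressor list, 12 were higher and 14 lower in cKO, and limma had 2 at an unadjusted p under 0.05, both higher (7.69%, against 2.98% of all genes). Atf7ip, the partner that stabilizes SETDB1 in the nucleus and binds SUMO, was read at 692, 617 and 707 in WT and at 902, 1027 and 1017 in cKO. The groups did not overlap, and the log2 difference was 0.55 ± 0.13 (limma, unadjusted p = 0.00213, adjusted p = 0.915). Chd3, a remodeler of the NuRD complex that TRIM28 recruits, was read at 530, 478 and 562 in WT and at 939, 998 and 842 in cKO, a log2 difference of 0.82 ± 0.13 (limma adjusted p = 0.411). Next by p were Cbx5, which encodes the heterochromatin protein HP1 alpha, with a log2 difference of -0.41 ± 0.22, and Ehmt2, which encodes G9a, with 0.31 ± 0.18. Trim28 itself was read at 2276, 1847 and 1651 in WT and at 2247, 1570 and 2014 in cKO (log2 difference 0.01), and Setdb1 had a log2 difference of 0.12.

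Other C2H2 families were compared for scale. Of 40 Zbtb, Zkscan and Zscan genes with a mean of 50 or more, 17 were higher and 23 lower in cKO, with a median log2 difference of -0.04. At an unadjusted p under 0.05, limma had 1 higher and 1 lower (2.50% each, against 2.98% and 2.17% of all genes). The difference between these and the Zfp genes was not tested.

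The base composition of the transcripts moved with the genotype difference, which was examined after the values were seen. Median G and C content was 40.5% in transcripts with the KRAB motif, 50.2% in the other Zfp genes and 50.5% in all genes tested. With the Zfp genes split by content into 3 sets of 52, 20 had a higher cKO value in the lowest set (38.5%), 24 in the middle set (46.2%) and 34 in the highest set (65.4%). All 5 genes higher at an unadjusted p under 0.05 (limma) were in the highest set, 5 of its 52. Of other protein-coding genes of matched content, 200 of 3369 were higher at that threshold in the highest set. It was 19 of 3652 in the middle set and 0 of 778 in the lowest. At the same threshold, 0, 1 and 0 Zfp genes were lower in cKO, from the lowest set to the highest. In the other protein-coding genes 48 of 778, 132 of 3652 and 18 of 3369 were lower. The differences between these counts were not tested. In other protein-coding genes of matched content the shares higher in cKO also rose from set to set, at 21.9%, 33.2% and 62.9%, and the difference between these shares and those of the Zfp genes was not tested. Across genes, Spearman's rho between content and log2 difference was 0.26 in the 156 Zfp genes and 0.40 in all protein-coding genes with a mean of 50 or more. Genes share the same 6 libraries and are not independent, so these are descriptions. Whether base composition has a part in the genotype differences was not tested.

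**Figure D3:**
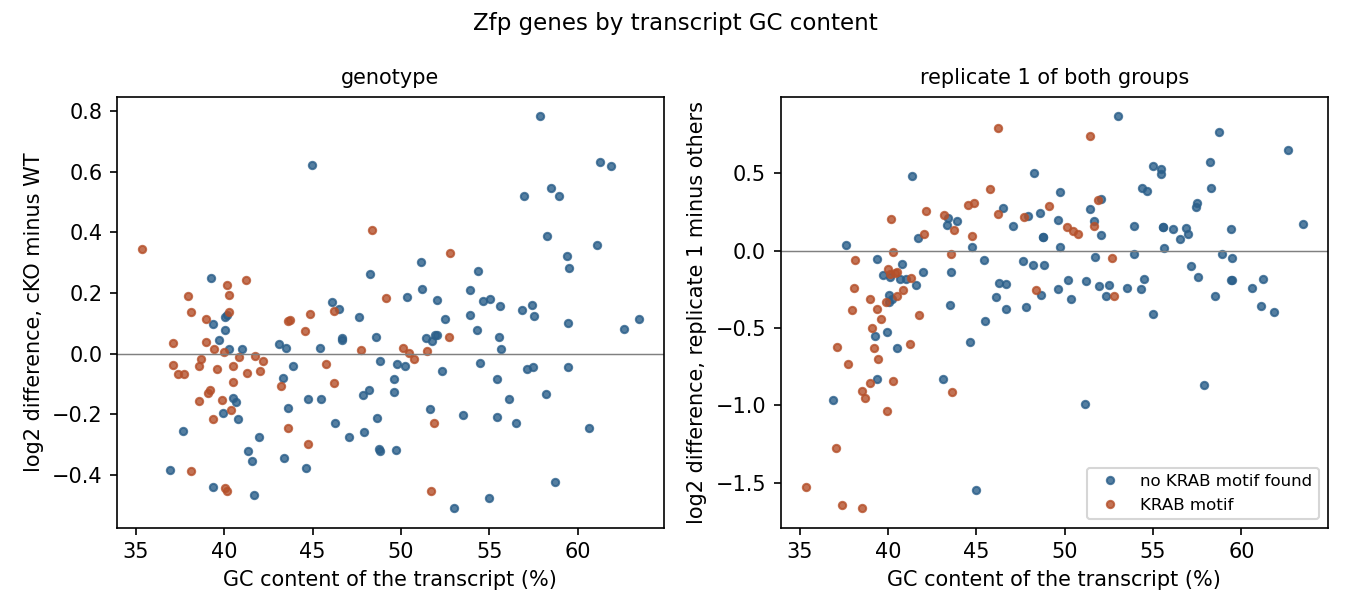
Each point is a Zfp gene, with the G and C content of its transcripts in percent on the horizontal axis and log2 differences on the vertical axes (left, cKO against WT; right, replicate 1 of both groups against the other 4 libraries), and colours for the KRAB motif. The points rise from left to right in both panels, with rho of 0.26 and 0.47.

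The libraries also differed by replicate number. Replicate 1 of both groups lay below the other 4 libraries in 41 of the 156 Zfp genes (26.3%, against 14.1% of all genes) and above them in 18 (11.5%, against 16.2%). With libraries scaled by their totals this order turned, with 25 below (16.03%, against 9.48%) and 42 above (26.9%, against 24.9%). Among the genes with the KRAB motif, 18 of 55 were below. Replicate 1 was lower by more than 2-fold in 6 Zfp genes (3.85%), against 6.93% of all genes tested and 2.04% of protein-coding genes with a mean of 50 or more, and 5 of the 6 had the KRAB motif. In the lowest set by G and C content, 46.2% of the Zfp genes and 49.9% of other protein-coding genes had replicate 1 below. In the highest set these shares were 7.69% and 5.52%. Replicate 1 was also the deepest library of each group and the lowest in mitochondrial reads, and the parts of depth, RNA quality and base composition were not tested. With a term for replicate 1 in the limma model, an unadjusted p under 0.05 was reached by 7 Zfp genes with a higher cKO value (against 4.64% of all genes) and by 10 with a lower one (against 4.52%), and the smallest adjusted p was 0.396.

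Of the 6 genes with replicate 1 lower by more than 2-fold, 4 lie in a cluster on chromosome 17 (GRCm38, 21008903 to 23564238), and the others are Zfp932 on chromosome 5, where replicate 1 was lowest relative to the other libraries among the 156, and Zfp318 elsewhere on chromosome 17. In this cluster the table has 19 Zfp genes and 10 of the 156, of which 8 have the KRAB motif. The cluster was singled out after its values were seen. In 8 of the 10, replicate 1 of both groups lay below the other 4 libraries, and the median log2 difference of replicate 1 from the rest was -0.93. It was -0.79 with libraries scaled by their totals. Zfp942 was read at 47.5, 151 and 194 in WT and at 53.7, 156 and 145 in cKO. Zfp943 was read at 33.4, 117 and 103 in WT and at 50.4, 108 and 79.7 in cKO. For both genes replicate 1 was the lowest library of each genotype, and the other libraries overlapped between genotypes. Zfp944 had 67.7, 131 and 183 in WT and 83.0, 123 and 153 in cKO, and Zfp758 had 19.2, 93.7 and 82.0 in WT and 43.9, 66.4 and 106 in cKO. Zfp51, Zfp52, Zfp53 and Zfp40 showed the same order, with replicate 1 lower by 0.70 to 1.03 on the log2 scale. Zfp160 and Zfp213, the 2 genes of the cluster without a match to the strict KRAB motif, did not. Zfp160 had 102, 91.6 and 105 in WT and 84.1, 101 and 67.4 in cKO. Transcript G and C content was 37.6% for Zfp160 and 59.5% for Zfp213, against a median of 38.1% in the cluster. Of the words of Zfp213, 52.3% are shared with another gene. Whether the motif or the base composition has a part was not tested. By genotype the cluster was centred, with a median log2 difference of -0.01 and single genes between -0.26 and 0.34. The only protein-coding gene in this interval with a mean of 50 or more and no Zfp name, Gm4944, had replicate 1 lower by 1.03 on the log2 scale. It was set apart by its name alone, and whether it encodes zinc fingers was not examined.

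**Figure D4:**
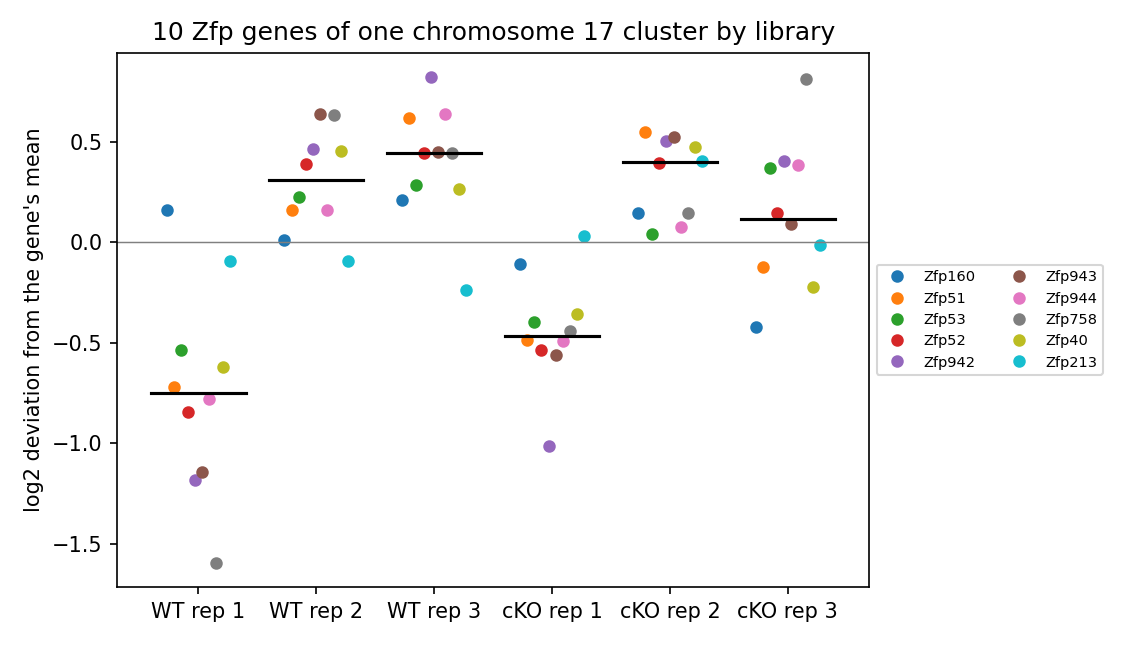
Log2 deviation of each Zfp gene of the chromosome 17 cluster from its own mean over the 6 libraries (vertical axis), per library (horizontal axis), with the median of the genes as a black line. Replicate 1 of both groups lies low in 8 of the 10 genes, with median deviations over the 10 of -0.75 in WT and -0.46 in cKO. The mean of replicate 1 minus that of the other libraries was 0.04 for Zfp160 and -0.05 for Zfp213.

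Other Zfp clusters shared this order less or not at all. The 5 genes of a chromosome 13 cluster (67038596 to 67827002), all with the KRAB motif, came nearest, with replicate 1 below the rest in 3 and a median of -0.50. The 7 genes of a chromosome 7 cluster (29768552 to 30169750) had replicate 1 higher by a median of 0.22, and 5 genes of a second chromosome 17 cluster (32765496 to 33631779) by 0.26. Median G and C content of the transcripts was 38.1% in the first chromosome 17 cluster and 40.1% in the chromosome 13 cluster. It was 48.3% in the chromosome 7 cluster and 42.2% in the second chromosome 17 cluster. The part of base composition was not tested, and no test of the difference between clusters was run.

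The cluster on chromosome 17 holds a pair of head-to-head gene pairs that carry nearly the same promoter. Zfp942 and Zfp943 start 88 bases apart on opposite strands, and Zfp944 and Zfp758 start 53 bases apart. The RefSeq windows of Zfp943 (GRCm38.p6, chr17:21962309-21962608, plus strand) and Zfp758 (chr17:22361213-22361512, plus strand) are printed because replicate 1 was low in all 4 genes. The capitals mark the complement of the GC box GGGCGG and the E-box CACGTG, which reads the same on both strands.
Zfp943: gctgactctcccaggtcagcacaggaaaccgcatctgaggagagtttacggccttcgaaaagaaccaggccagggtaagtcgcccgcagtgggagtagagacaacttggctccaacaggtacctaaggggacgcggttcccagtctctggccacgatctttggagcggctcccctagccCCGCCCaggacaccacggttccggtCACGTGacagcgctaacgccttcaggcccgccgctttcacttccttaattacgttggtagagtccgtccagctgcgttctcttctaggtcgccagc
Zfp758: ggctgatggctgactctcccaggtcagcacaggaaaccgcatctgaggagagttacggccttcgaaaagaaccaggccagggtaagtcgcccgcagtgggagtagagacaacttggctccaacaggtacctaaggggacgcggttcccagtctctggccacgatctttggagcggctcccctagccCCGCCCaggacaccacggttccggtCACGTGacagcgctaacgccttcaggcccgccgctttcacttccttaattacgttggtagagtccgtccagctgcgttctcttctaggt

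Where the Zfp943 and Zfp758 windows align, 292 of 292 aligned bases were identical, gaps left out, and between Zfp942 and Zfp944 it was 274 of 275. The transcripts are less alike, since 3.97% to 10.4% of the words of these 4 genes are shared with another gene. Over both strands, the E-box was in 7.05% of the Zfp windows and 7.15% of all 32851 windows. The GC box was in 55.8% of the Zfp windows and 35.7% of all. CCAAT was in 48.7% against 37.4%, and in 65.5% of the windows of genes with the KRAB motif. The ETS core CCGGAAG was in 19.9% against 8.86%, and ATGGCGG, the core of the YY1 motif, was in 12.2% against 4.05%. TATAAA was less frequent, in 5.77% against 13.6%. The Zfp windows were also richer in G and C, with a median of 58.0% against 52.7%, and a match is a description of letters and not of binding.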

How the data were processed

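RNA sequencing of 3 WT and 3 cKO libraries was grouped by the titles in the labels. Tools listed in the submitters' processing notes are DESeq2, HTSeq, SAMtools, HISAT, HISAT2 and TopHat2, without roles, and the build is mm10 (GRCm38). The annotation release and strand setting are not given in sources used here. The authors deposited a signal per gene and library, which is a count divided by the library's size factor and is called a normalized count here. Beside these, the authors' deposited table holds a log2 fold change and its error, a test score and a p-value and adjusted p-value, per the file headers. All values (100% in each library, tolerance 0.01 read) were whole multiples of 1 read, so read counts were recovered; 1 read equals 0.506 to 2.04 normalized counts.

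The test was limma 3.58.1 (R 4.3.3) on log2(value + 1) with a trended prior variance. Genes averaging at least 1 entered it (14678), with genotype as the only term, and calls were made at a p of 0.05 after Benjamini-Hochberg adjustment. The pseudocount shrinks the differences of low genes. The test was planned for normalized values and tested on simulated data. edgeR 4.0.16, DESeq2 1.42.0 and limma-voom on recovered reads, other scalings, pseudocounts, filters, replicate terms and leaving out each library were alternatives. The scalings and pseudocounts for the replicate 1 pattern were added after seeing the data.

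Members and lists were chosen with earlier results of these data known. Named genes are Senp1, the 8 with the smallest p in each direction, the 5 highest by mean and per kilobase, the 3 nearest each side of the mean of 50, the 3 with the largest spread within groups, all measured members of the role lists, and 4 KRAB corepressors. Others, such as those of the chromosome 17 cluster, Trim28, Setdb1 and Gm4944, were chosen after their values were seen, as were the base composition sets, clusters, promoter motifs and shared words. Of the role lists, Zfp462 and Zfp708 have no value here, Zfp219 and Zfp516 lay under the mean of 50, and Zfp532 was under 2.13 normalized counts. Positions, exon lengths and translations come from GENCODE M21, where 19563 of the 19680 identifiers were found. Promoter windows are RefSeq's (GRCm38.p6), found for 125 of the 156 genes.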

Additional observations from a re-analysis of the deposited data

How the results depend on the processing

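No Zfp gene was called by limma, edgeR or DESeq2 in any of 18 alternatives with a test (count 0 in each), and the smallest adjusted p was 0.396. The counts at an unadjusted p under 0.05 moved, and the share of all genes tested is given beside each. Library totals gave 4 higher (all genes 1.87%) and 3 lower (2.74%). Quantile normalization gave 0 lower (2.23%), and a mean of at least 10 gave 2 lower (2.51%). With limma-voom 3 were higher (3%). A term for replicate 1 gave 7 higher (4.64%) and 10 lower (4.52%). Replicates 2 and 3 alone gave 6 higher (3.86%) and 6 lower (3.08%). Whether the replicate numbers pair the libraries was checked from deviations from the group means, which correlated at 0.49, 0.05 and 0.20, so replicate 1 of the groups deviated together, replicate 2 did not by the bound of 0.1, and the numbers were not taken to pair the libraries. With the replicate block limma had 7 higher (all genes 4.78%) and 8 lower (4.31%), and the smallest adjusted p was 0.396. Leaving out each library gave 2 to 9 higher (9 without cKO replicate 1, 2 without any other) and 0 to 5 lower (5 without WT or cKO replicate 1, 2 without cKO replicate 2, 0 without WT replicate 2 or cKO replicate 3), and the median log2 difference ran from -0.04 to 0.05. In these fits the shares of all genes were 1.30% to 4.95% higher and 1.04% to 4.35% lower. Library totals moved the median of the Zfp genes to -0.083, where that of all genes was -0.078, and that of the genes without the KRAB motif to -0.06. The cause of these moves was not tested.

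Zfp777 kept a log2 difference of 0.41 to 0.57, with adjusted p from 0.396 to 0.999. The 8 named higher and 8 named lower genes kept their direction in all 19 alternatives, and of 49 named genes 25 did. The log2 difference changed sign for the other 24 in at least 1 alternative. With library totals the values were -0.020 for Zfp592, -0.060 for Zfp326, -0.064 for Zfp638, -0.061 for Zfp330, -0.0013 for Zfp384, -0.048 for Zfp281, -0.026 for Zfp830 and -0.038 for Zfp217. Within replicate 1, where no test is possible, they were 0.17 for Zfp942, 0.28 for Zfp825, -0.17 for Zfp593, -0.010 for Zfp598, 0.14 for Zfp451, 0.077 for Zfp410, -0.20 for Zfp830, -0.22 for Zfp831, -0.012 for Zfp217, 0.40 for Zfp809 and 0.022 for Zfp932. Within replicates 2 and 3 they were -0.060 for Zfp758, -0.041 for Zfp326, -0.016 for Zfp330, 0.040 for Zfp609 and 0.11 for Zfp568. With quantile normalization they were -0.0080 for Zfp326 and -0.0045 for Zfp830. With limma-voom they were -0.049 for Zfp281 and 0.16 for Zfp809. With edgeR it was 0.049 for Zfp809. With DESeq2 it was 0.052 for Zfp809. Leaving out each library in turn gave log2 differences of -0.014 to 0.18 for Zfp592, -0.0046 to 1.24 for Zfp318, -0.37 to 0.75 for Zfp758, -0.68 to 0.42 for Zfp942, -0.11 to 0.29 for Zfp770, -0.28 to 0.17 for Zfp825, -0.30 to 0.50 for Zfp369 and -0.13 to 0.16 for Zfp326. It gave -0.049 to 0.14 for Zfp638, -0.044 to 0.076 for Zfp330, -0.060 to 0.18 for Zfp384, -0.31 to 0.088 for Zfp609, -0.25 to 0.31 for Zfp281, -0.37 to 0.037 for Zfp451, -0.19 to 0.10 for Zfp410 and -0.16 to 0.20 for Zfp830. It also gave -0.18 to 0.083 for Zfp445, -0.26 to 0.76 for Zfp831, -0.074 to 0.13 for Zfp217, -0.28 to 0.12 for Zfp809, -0.76 to 0.35 for Zfp932 and -0.16 to 0.082 for Zfp568. The replicate 1 pattern depends on scaling, with 25 Zfp genes below and 42 above by library totals, and the cause was not tested. Depth limits the values of cKO replicates 2 and 3 most, where the median Zfp gene had 70.5 and 65.5 reads.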
